A study of Mus musculus with 71 samples.

Results

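The intervals described here are 2647 of the 155738 numbered stretches of open chromatin in an ATAC-seq table from mouse embryonic stem cells grown into ventral spinal cord progenitors. They were chosen because their accessibility on day 9 was higher in the NFIAp than in the NFIAn fraction of wild-type (WT) progenitors, both in p2 and in pMN. With values taken as log2(value + 5) and averaged within a group, a member had a difference of at least 1 in p2 and of at least 0.5 in pMN. Replicate 2 of the p2 NFIAp group was left out of that rule. All 2647 members passed the filter on low values, which asked for 10 or more normalised reads in 2 or more libraries.

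NFIA is a transcription factor known from the switch by which neural progenitors stop making mainly neurons and begin to make glia. The pMN domain first gives rise to motor neurons and later to oligodendrocyte precursors, while p2 and the domains p0 and p1 give ventral interneurons and later astrocytes. ATAC-seq uses the transposase Tn5, which cuts and tags DNA where nucleosomes or other proteins leave it exposed, so the number of reads in an interval reports how accessible it is. In CaTS-ATAC this is done on fixed cells that are then stained for marker proteins inside the cell and sorted.

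The study sampled the differentiation on days 5, 7, 9 and 11 and asked how chromatin of p0-p1, p2 and pMN changes with time. Cells had been given bFGF, then the GSK3 inhibitor CHIR99021, then retinoic acid with the Smoothened agonist SAG, and SAG alone from day 5. All groups share this treatment. There were 38 libraries labelled WT and 33 labelled MUT, in 19 groups of 3 and 7 groups of 2, and the labels do not say which gene is mutated in MUT or whether MUT is 1 clone. WT was NFIAn on days 5 and 7 in each population. On day 9 WT p2 and pMN were split into NFIAn and NFIAp, WT p0-p1 was NFIAn, and on day 11 the 3 WT populations were NFIAp. MUT was NFIAn in each population on each day. NFIAn and NFIAp are taken here as sorted without and with NFIA protein, which the titles carry and no label spells out. In WT the passage from day 7 to day 11 is also one from NFIAn to NFIAp, and on day 11 genotype and fraction cannot be told apart.

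Reads in intervals, recovered from the table, numbered between 20034731 and 31315134 per library, with a median of 24375871. The intervals carry a number but no position or gene, so none of their sequences is shown, and the sorted populations could not be checked against marker genes. In 2 intervals picked because they separate the genotype labels, the library labelled WT day 7 pMN replicate 3 had a mean of 0 normalised reads and the library labelled MUT day 7 pMN replicate 3 had 89.1, each against its label. Many counts of calls and some named steps that rest on them are also given without them, and the others only with them. Where 3 libraries are said to be left out, these are the pair and p2 NFIAp replicate 2. The labels do not tie replicates to separate cultures, so a p-value here measures the spread between libraries, which may be technical. In sorted bulk cells, more cells open at an interval and more opening per cell cannot be told apart.

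On day 9, the day of the rule, the median member had 65.8 and 45.9 normalised reads in p2 NFIAp replicates 1 and 3, and 22.4, 16.5 and 16.0 in the p2 NFIAn libraries. In pMN it had 64.9, 37.0 and 34.7 in NFIAp and 26.5 and 17.9 in NFIAn. These values chose the members and are a description. In the library that the rule left out, p2 NFIAp replicate 2, the median member had 18.7 normalised reads, inside the range of the p2 NFIAn libraries. That library was above every p2 NFIAn library in 711 members and at or below the highest of them in 1936, and it was below both other NFIAp replicates in 2466. The higher level in NFIAp p2 therefore rests on replicates 1 and 3, which chose the members. In replicate 2 the median member did not show it. Lower values in replicate 2 follow partly from that choice, and these counts were not taken over all intervals. With replicate 2 in the mean the rule gave 840 intervals, of which 811 are members, and it gave 1550 without replicate 1 and 5264 without replicate 3. Relative to the p2 libraries of day 7, the median member was higher by 2.13, 0.55 and 1.53 on the log2 scale in NFIAp replicates 1, 2 and 3, while the median over all intervals lay at 0.00, -0.02 and 0.01.

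**Figure D1:**
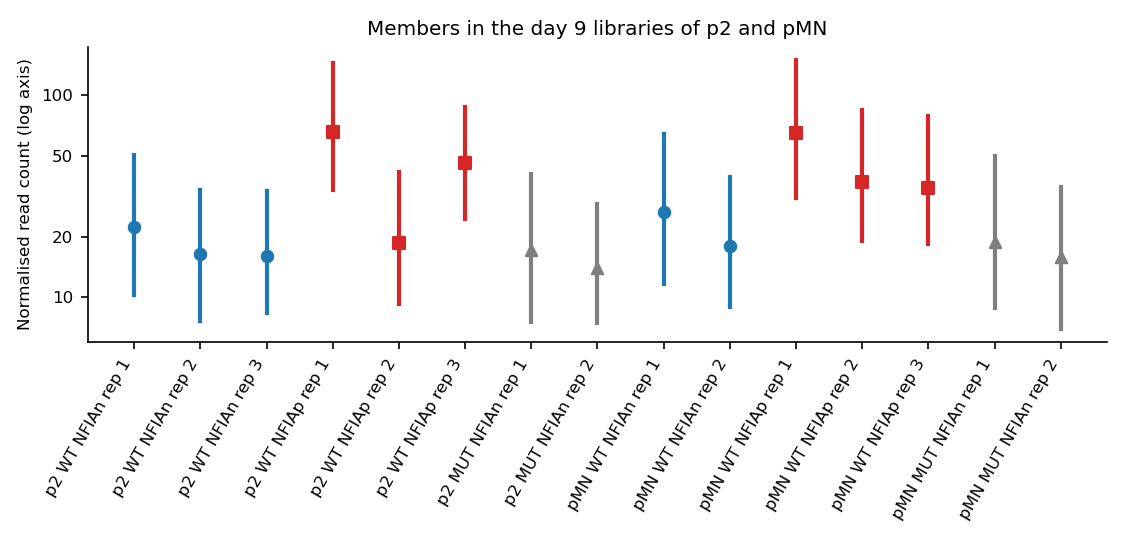
Normalised read count of the members (log axis) in each day 9 library of p2 and pMN; points are medians and bars the interquartile range over 2647 intervals, blue WT NFIAn, red WT NFIAp, grey MUT NFIAn. The p2 NFIAp replicate that the rule did not use has a median of 18.7, level with the NFIAn libraries, against 65.8 and 45.9 in the others.

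The size of the day 9 difference varied more among members in p2 than the bound alone sets. In p2 it ran from 1.00 to 3.32 with a median of 1.24 and an interquartile range of 1.10 to 1.46. In pMN it ran from 0.50 to 2.27 with a median of 0.80 (0.64 to 1.03). The pMN difference reached 1 in 715 members and was at least as large as the p2 difference in 167. Both NFIAp libraries used in p2 lay above every NFIAn library in 2358 members, and all 3 NFIAp libraries of pMN did so in 1813. The same libraries chose the members, so these counts only describe the rule, and the share over all intervals was not counted. The 2 members nearest to the p2 bound, Interval_84086 and Interval_91171, differed by 1.00025 and 1.00033 there. The nearest intervals outside it, Interval_145325 and Interval_113954, differed by 0.99991 and 0.999859. At the pMN bound, Interval_98698 and Interval_144021 lay inside with 0.500117 and 0.500246, and Interval_53998 and Interval_120126 lay outside with 0.499486 and 0.499475. Intervals on either side of a bound were thus nearly alike.

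The members with the largest smaller value of both differences were Interval_89354 (2.22 in p2, 2.27 in pMN), Interval_111534 (3.32 and 2.11), Interval_64236 (2.80 and 2.07) and Interval_113917 (2.00 and 1.95). Interval_89354 had 94.9 and 28.1 normalised reads in the p2 NFIAp libraries used and 12.1, 4.39 and 6.73 in NFIAn. In the p2 NFIAp replicate not used it had 7.26. In pMN it had 134, 39.1 and 41.8 in NFIAp, above 15.9 and 3.99 in NFIAn.

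Before day 9 the members held few reads, and in WT they held far more than the median interval by day 11. The level of the median member was 10.3 to 11.8 normalised reads in the WT groups of day 5 and 11.4 to 12.1 in those of day 7, where the median of all intervals was 26.4 to 28.1. In the NFIAn fractions of WT day 9 the p0-p1 level was 20.1 ± 2.39 (SD, n = 3), that of p2 18.3 ± 3.54 (SD, n = 3) and that of pMN 22.2 ± 6.02 (SD, n = 2). On day 11 the p0-p1 level was 105 ± 19.2, the p2 level 164 ± 19.6 and the pMN level 171 ± 18.7 (SD, n = 3 each), while the median of all intervals was 31.3 to 33.0. Every WT library of day 11 lay above every other library of its population.

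Among the members, 1205 (45.5%) had a mean under 10 normalised reads in the WT libraries of day 5, against 21.7% of all intervals. On WT day 11 only 57 (2.15%) did, against 18.2% of all. In MUT the share was 42.8% on day 5 and 15.1% on day 11, against 17.8% of all intervals on day 11. Members held between 0.162% and 0.218% of the signal in the WT libraries of day 7 and between 1.53% and 3.09% in those of day 11.

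**Figure D2:**
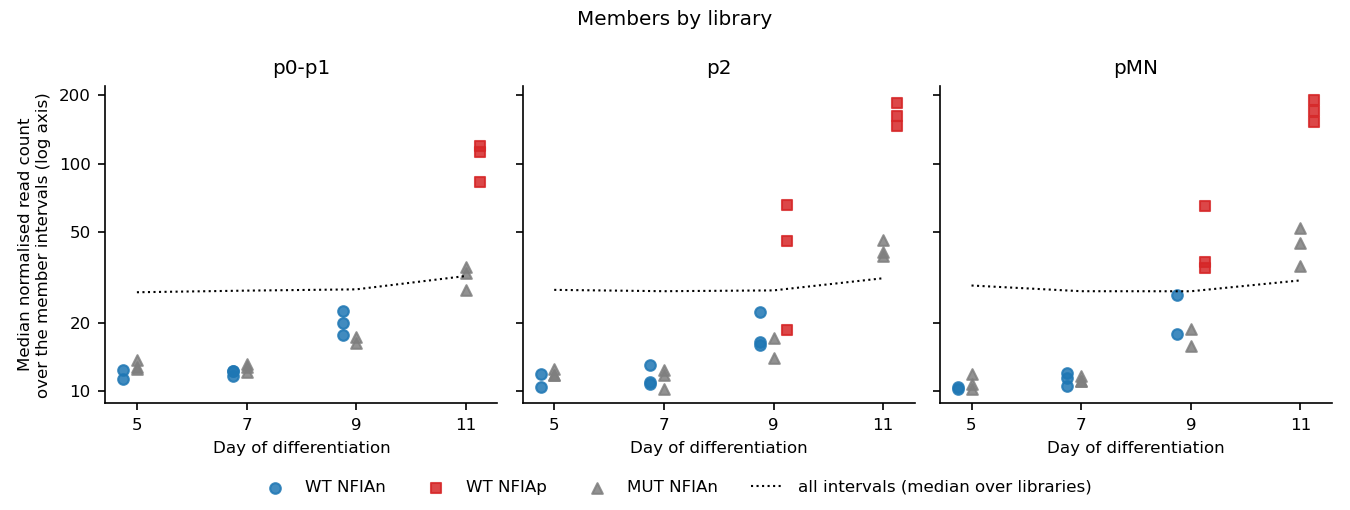
Median normalised read count over the members (log axis) in each library by day of differentiation, for p0-p1, p2 and pMN; each point is 1 library and the dotted line is the median over all intervals. WT rises from near 12 on day 7 to between 83.5 and 189.7 on day 11, and MUT to between 27.8 and 52.3.

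In MUT the levels of days 5 and 7 lay near those of WT, and those of day 11 lay well below. The median member had 10.3 to 13.7 normalised reads in the MUT libraries of day 5 and 10.3 to 13.2 in those of day 7. Its day 9 level was 16.8 ± 0.71 for p0-p1, 15.5 ± 2.23 for p2 and 17.3 ± 2.08 for pMN (SD, n = 2 each). Its day 11 level was 32.0 ± 3.79, 42.3 ± 3.56 and 44.3 ± 8.45 (SD, n = 3 each), below every WT library of that day in the same population. In the 8 day 9 groups, replicate 1 had the highest median of its group, and its part in the day 9 difference was not tested.

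The change from day 7 to day 11 in WT was measured in libraries that took no part in choosing the members. In p2 the median member rose from day 7 to day 11 by 3.26 on the log2 scale (interquartile range 2.18 to 4.22), and the median over all intervals was 0.00. Of the members, 2416 (91.3%) were called higher and 13 lower, where an interval was called at a limma Benjamini-Hochberg adjusted p under 0.05 with a log2 change of at least 1. Over all tested intervals 21.6% were called higher and 16.7% lower. In pMN, 2372 members (89.6%) were called higher and 36 lower, with a median of 3.32 (2.15 to 4.34), against 22.1% higher and 18.9% lower among all intervals and a median of -0.01. Without the WT day 7 pMN library that goes against its genotype label the pMN counts were 2382 and 34.

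No p0-p1 library entered the rule. In p0-p1, 2257 members (85.3%) were called higher on day 11 and 22 lower, with a median of 2.56 (1.60 to 3.47), against 22.1% higher and 14.8% lower among all intervals and a median of 0.04. A total of 2196 members (83.0%) were called higher in all 3 populations, which 14.0% of all tested intervals were. Of the remaining members, 150 were called higher in p2 and pMN but not in p0-p1, 40 in p2 only, 18 in pMN only and 23 in p0-p1 only. None of the 3 steps was called higher in 182 members (6.88%). Among all tested intervals 69.3% had no step called higher, 4.43% were called in p2 and pMN but not in p0-p1, 5.38% in p0-p1 only, 1.68% in p2 only and 2.47% in pMN only. With the 3 doubted libraries left out, 2198 members were called higher in all 3 populations and 174 in none.

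**Figure D3:**
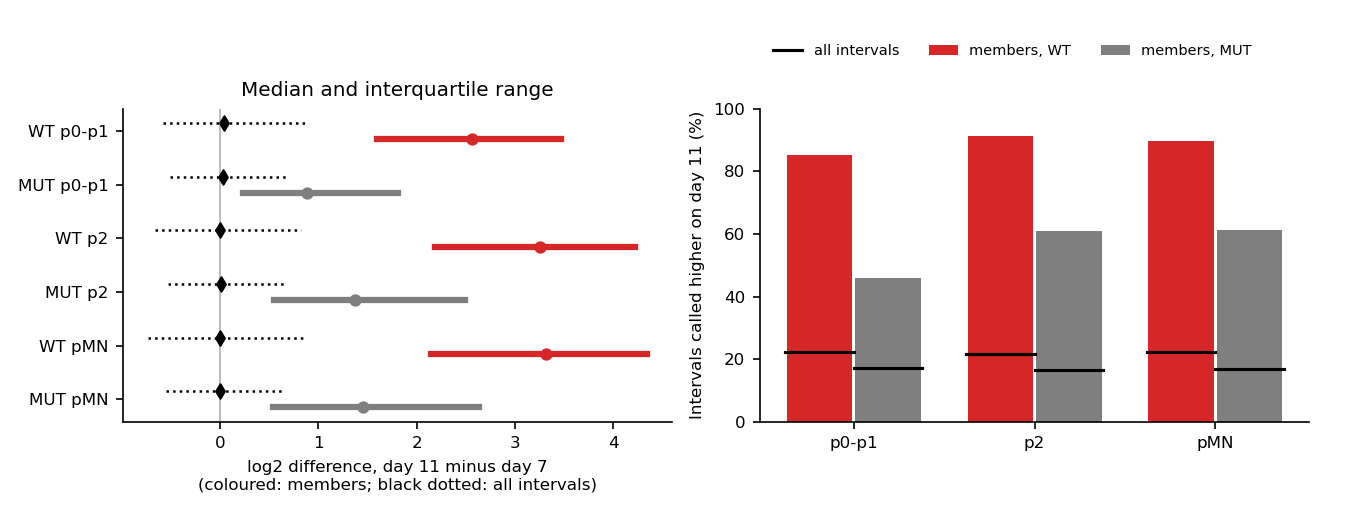
Left, log2 difference of day 11 minus day 7 in each genotype and population, as median and interquartile range over the members (coloured) and over all tested intervals (black, dotted); right, percent of members called higher on day 11 (bars) and of all tested intervals (black lines). Member medians are 2.56 to 3.32 in WT and 0.88 to 1.45 in MUT, and those of all intervals lie within 0.04 of 0.

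Single members show the size of the WT rise. By the rule for named intervals, the largest rises over the mean of the populations were in Interval_111534, Interval_138679, Interval_102974 and Interval_118954. Interval_111534 had 2.17, 5.79 and 3.32 normalised reads in WT p2 on day 7 and 1424, 1313 and 1111 on day 11. In pMN it went from 2.30, 2.12 and 4.36 to 1529, 1431 and 1248, and in p0-p1 from 2.45, 7.44 and 10.3 to 744, 909 and 669. No library of one day came near one of the other, and the mean step was 6.93 ± 0.32 (SE; limma adjusted p = 1.4e-29). On day 9 the same interval had 469, 9.33 and 73.0 normalised reads in p2 NFIAp, a spread far wider than on day 11.

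Interval_118954 was almost without reads before day 9. It had 1.08, 0.723 and 3.32 normalised reads in WT p2 on day 7, and 1016, 884 and 865 on day 11. Its mean step was 6.63 ± 0.27 (SE; limma adjusted p = 8.6e-33). Interval_138679 and Interval_102974 rose by 6.72 ± 0.26 and 6.65 ± 0.22 (SE) over the mean of the populations. The 4 mean steps lay between 6.64 and 6.97 with the 3 doubted libraries left out. Against a pseudocount of 5 these log2 values understate changes that begin at so few reads.

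A WT fall between days 7 and 11 was rare among the members: 52 (1.96%) were called lower in at least 1 population, against 24.6% of all tested intervals. That count was 51 once the 3 doubted libraries were dropped. The lowest mean steps without a rise in any population were those of Interval_48354 and Interval_9235. Interval_48354 had 65.4, 118 and 118 normalised reads in WT pMN on day 7 and 5.66, 7.26 and 8.36 on day 11. It fell by 3.08 ± 0.30 (SE; limma adjusted p = 2.7e-14) there, and by 2.95 ± 0.32 (SE) with the 3 doubted libraries left out. On day 9 its pMN values were 41.7, 81.4 and 96.9 in NFIAp and 24.3 and 70.8 in NFIAn, so the fractions overlapped. Interval_9235 fell by 3.03 ± 0.29 (SE) in pMN, from 94.1, 117 and 147 to 10.4, 11.4 and 8.36. Without those 3 libraries it fell by 2.87 ± 0.32 (SE). Both intervals were highest in pMN on day 7 and lost that level in MUT as well, with mean MUT steps of -1.08 ± 0.17 (SE) each.

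MUT cells, NFIAn throughout, also opened many of these regions by day 11, and by less. In MUT p0-p1, 1214 members (45.9%) were called higher on day 11 than on day 7 and 57 lower, with a median step of 0.88, against 17.1% higher and 13.5% lower among all intervals. In MUT p2, 1612 (60.9%) were higher and 22 lower, with a median of 1.37, against 16.7% and 13.6% of all. In MUT pMN, 1624 (61.4%) were higher and 42 lower, with a median of 1.45, against 17.0% and 14.4% of all. Without the library labelled MUT day 7 pMN replicate 3 the pMN counts were 1627 and 44. All 3 MUT steps were called higher in 1102 members (41.6%) and none in 836 (31.6%), against 9.04% and 74.4% of all tested intervals. Without the 3 doubted libraries these counts were 1105 and 834.

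Among members at or above the members' median level, called in all 3 populations, the largest MUT rises were in Interval_16503, Interval_52003 and Interval_58607. Interval_16503 had 3.43, 4.13 and 6.41 normalised reads in MUT p2 on day 7 and 962, 807 and 466 on day 11. In WT p2 it went from 8.66, 7.96 and 5.53 to 1274, 1173 and 855. Its mean step in MUT was 5.63 ± 0.24 (SE), and the WT step exceeded it by 0.36 ± 0.34 (SE; limma adjusted p = 0.47). Interval_52003 was already at 239 and 72.6 normalised reads in MUT p2 on day 9, and at 204 and 87.8 in MUT pMN. From there MUT p2 reached 1058, 807 and 465 by day 11, and MUT pMN 947, 743 and 414. All these MUT libraries were sorted as NFIAn.

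The difference between the WT and MUT steps was tested directly as an interaction. In p0-p1 the WT step exceeded the MUT step in 1341 members (50.7%) and was smaller in 1. Over all tested intervals it exceeded the MUT step in 5.26%, was smaller in 0.708% and differed in either direction in 5.96%. In p2 the counts were 1504 (56.8%) and 4, against 7.4%, 1.64% and 9.03% of all in the same order. In pMN they were 1471 (55.6%) and 18, against 8.04%, 2.89% and 10.9% of all, and with the 3 doubted libraries left out they were 1441 and 12. Median differences of the steps were 1.37, 1.54 and 1.48, and those of all intervals lay between -0.02 and 0.00. The WT step exceeded the MUT step in all 3 populations in 1221 members (46.1%) and in none in 1005, against 3.77% and 89.5% of all tested intervals. Without the 3 doubted libraries these counts were 1244 and 970.

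The direct comparison of the genotypes on day 11 uses the same day 11 libraries as the steps, so it is given beside them and is not separate evidence. MUT was lower than WT in 1518 members (57.3%) in p0-p1, with 3 higher and a median difference of -1.30. In p2, 1597 (60.3%) were lower and 4 higher, with a median of -1.53, and in pMN 1567 (59.2%) were lower and 27 higher, with a median of -1.46. Over all intervals 6.57%, 7.85% and 8.46% were lower and 1.18%, 2.54% and 3.32% higher. On day 5, over the mean of the populations, 2 members were higher in MUT and 1 lower, against 0.0963% and 0.0199% of all intervals, and the median difference was 0.09.

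Combining the WT and MUT calls sorted the members into groups. Those calls rest on the day 7 and day 11 libraries, so the levels of these days only describe the sorting. In 1075 members all 3 populations rose in both genotypes. Their median levels on day 11, for p0-p1, p2 and pMN in turn, were 207, 332 and 353 normalised reads in WT and 85.4, 136 and 149 in MUT. In 558 members all 3 WT populations rose and no MUT population was called. There the WT medians were 76.5, 122 and 121 and the MUT medians 9.47, 10.5 and 10.0, close to the 6.73 to 7.77 of MUT day 7. The first group had the higher mean over all libraries, with a median of 80.9 against 25.3. That mean includes the day 7 and day 11 libraries that sorted the groups. On WT day 5 the medians for p0-p1, p2 and pMN were 12.4, 11.9 and 11.4 against 8.45, 7.83 and 6.53. Among all tested intervals, 6.72% fell in the first group and 3.49% in the second. With the 3 doubted libraries left out, the groups held 1079 and 555 members.

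The 182 members without a WT rise were picked by their WT steps. Their WT levels on days 7 and 11 follow from that choice and are a description. Their medians on WT day 11 were 13.3, 17.3 and 12.9, below the 17.1, 16.2 and 17.1 of WT day 7 in p0-p1 and pMN and near it in p2. Their median day 9 difference was 1.26 in p2 and 0.65 in pMN, against 1.21 and 0.86 in the members that rose in both genotypes.

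By the rule for named intervals, the largest differences between the WT and MUT steps were in Interval_53741, Interval_87071 and Interval_118950. Interval_53741 had 874, 745 and 695 normalised reads in WT p2 on day 11, and 13.1, 11.5 and 5.50 in MUT p2. In pMN it had 989, 825 and 769.8 in WT and 10.9, 7.84 and 7.46 in MUT. The genotypes did not overlap in any population, and the mean difference of the steps was 5.36 ± 0.31 (SE; limma adjusted p = 1.5e-22). In MUT the mean step was 0.26 ± 0.22 (SE; limma adjusted p = 0.29). With the 3 doubted libraries left out, the difference of the steps was 5.37 in Interval_53741, 5.21 in Interval_87071 and 5.40 in Interval_118950.

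Interval_87071 had few reads in MUT, with 3.02, 5.73 and 0 normalised reads in p2 on day 11 against 258, 270.4 and 251 in WT. Its mean steps were 5.35 ± 0.20 in WT and 0.05 ± 0.20 in MUT (SE). Interval_118950 was not closed at the start: it had 68.2, 74.5 and 66.3 normalised reads in WT p2 on day 7 and 44.6, 56.8 and 80.1 in MUT p2. In WT it fell to 12.1, 12.1 and 15.1 in the NFIAn fraction of day 9 and stood at 934, 945 and 810.0 on day 11. In MUT it was at 12.4 and 14.9 on day 9 and at 12.1, 10.5 and 11.9 on day 11, and its mean MUT step was -1.40 ± 0.18 (SE; limma adjusted p = 2.1e-10). WT and MUT thus moved in opposite directions there.

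**Figure D4:**
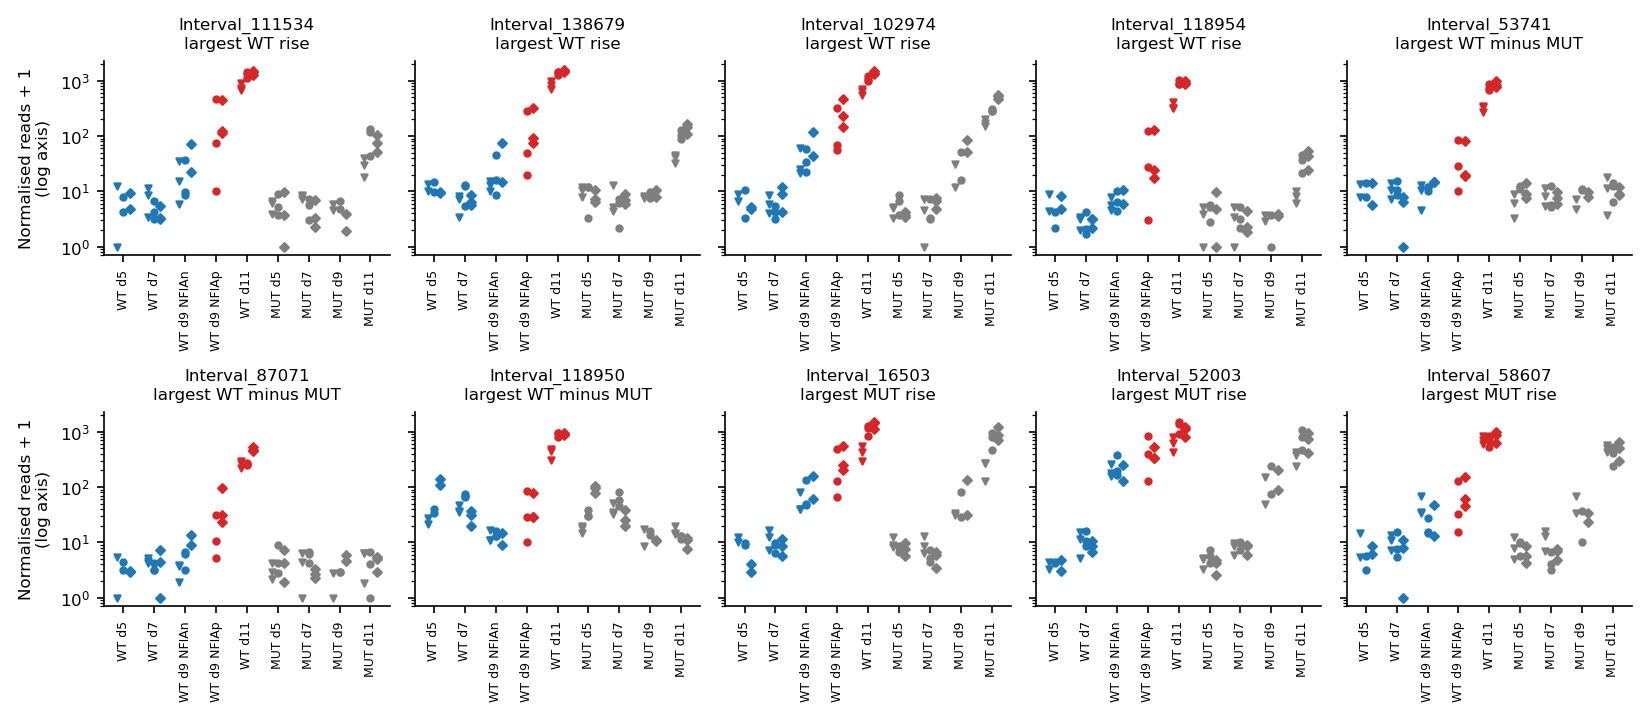
Normalised reads + 1 (log axis) of 10 named members in each library by genotype, day and fraction; triangles p0-p1, circles p2, diamonds pMN, blue WT NFIAn, red WT NFIAp, grey MUT. Interval_53741 lies between 273 and 989 in WT on day 11 and between 2.69 and 17.0 in MUT, while Interval_52003 lies between 243 and 1058 in MUT.

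The earlier steps show when the rise began. From day 5 to day 7, with the WT populations averaged, 78 members were called higher and 98 lower with a median of 0.00, against 7.67% and 4.12% of all intervals. Without the WT day 7 pMN library that goes against its label the counts were 74 and 99, and with a pseudocount of 1 they were 224 and 160. In WT p0-p1, whose day 9 libraries are NFIAn and did not enter the rule, 569 members (21.5%) were higher on day 9 than on day 7 and 21 lower, with a median of 0.47, against 5.5% and 5.27% of all intervals. From day 9 NFIAn to day 11 NFIAp in the same population 2133 (80.6%) were higher and 4 lower, with a median of 1.97, against 14.3% and 5.34% of all. From day 7 to day 9, with the MUT populations averaged, 360 members (13.6%) were higher and 15 lower, with a median of 0.29, against 3.85% and 4.11% of all intervals. With the 3 doubted libraries left out the MUT counts were 354 and 15. A small part of the rise was thus present on day 9 in cells sorted as NFIAn, in both genotypes. It was not particular to the members. Of the 13615 intervals that met only the pMN bound, 13.6% were higher in this WT p0-p1 step and 11.8% in this MUT step. Their medians were 0.30 and 0.31. Of the 3199 that met only the p2 bound, 4.03% and 1.88% were higher.

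The populations were compared on day 11, with libraries of the same number not paired. Calls between WT p2 and pMN with a replicate block are given at the end. In WT, 696 members (26.3%) were lower in p0-p1 than in the mean of p2 and pMN and 52 were higher, with a median of -0.64, against 5.17% and 6.79% of all intervals. The number higher was 31 without WT p0-p1 replicate 1 and 93 without replicate 3. In MUT, 492 (18.6%) were lower in p0-p1 and 55 higher, with a median of -0.41, against 2.96% and 4.95%. Between WT p2 and pMN on day 11, 16 members were higher in p2 and 49 in pMN, against 2.16% and 1.76% of all intervals, with a median of -0.03. Single libraries decided these counts: 3 were higher in p2 without pMN replicate 3, 10 without pMN replicate 2 and 8 without p2 replicate 3, and 23 were higher in pMN without pMN replicate 1. The median turned to 0.04 without p2 replicate 3 and to 0.03 without pMN replicate 1.

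Named members show the kinds of difference. Interval_146263 had 111, 91.7 and 59.9 normalised reads in WT p0-p1 on day 11, 697, 423 and 385 in p2, and 891, 656 and 528 in pMN. In MUT it reached no more than 27.2 in any population. Interval_140362 had 73.1, 78.3 and 52.6 in WT p0-p1, against 451, 355 and 336 in p2 and 604, 601 and 456 in pMN, and it kept that order in MUT with 54.8, 54.6 and 43.0, then 306, 263 and 206, then 567, 461 and 409. Its p0-p1 difference was -2.67 ± 0.22 in each genotype (SE). Interval_13798 was the other way round, with 336, 149 and 84.4 in WT p0-p1 against 53.8, 43.8 and 56.0 in p2 and 42.5, 42.5 and 29.7 in pMN. Its difference was 1.78 ± 0.27 (SE), and 1.26 without WT p0-p1 replicate 1. Interval_29548 showed the same order, with p0-p1 at 682, 380.0 and 273, p2 at 127, 142 and 162, and pMN at 121, 107 and 102.

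Other members were named for a difference between p2 and pMN. Interval_72234 had 204, 270.4 and 217 normalised reads in WT p2 and 65.1, 117 and 91.0 in pMN on day 11 (log2 difference 1.32 ± 0.30 SE; limma adjusted p = 0.0018). Interval_52675 had 93.7, 59.5 and 53.6 in p2 and 333, 231 and 145 in pMN (-1.67 ± 0.30 SE; limma adjusted p = 3.9e-05). Interval_46994 likewise was higher in pMN, with 42.5, 45.9 and 51.1 in p2 and 247, 159.7 and 133 in pMN. Interval_143487 had 69.4, 61.6 and 136 in p2 and 49.1, 39.4 and 29.7 in pMN, and its difference of 1.02 ± 0.32 (SE) fell to 0.69 and was no longer called without p2 replicate 3.

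The members were also described along the p2 difference that helped to choose them, with no test, over a range that begins at the bound. Split into 4 classes of like size by the p2 difference (1.00 to 1.10, 1.10 to 1.24, 1.24 to 1.46 and 1.46 to 3.32), they had a median WT p2 step of 2.75, 3.12, 3.47 and 3.87. Between the lowest and the highest class the WT pMN step went from 2.77 to 4.07 and the WT p0-p1 step from 2.18 to 3.20. The median MUT p2 step was 1.57 in the lowest and 1.13 in the highest class, and the median MUT pMN step 1.68 and 1.10. With the 3 doubted libraries left out the pMN steps were 2.82 and 4.05 in WT and 1.69 and 1.12 in MUT. As a description across the 2647 members, which share their libraries and are not replicates, the p2 difference correlated with the WT p2 step at r = 0.25 and with the MUT p2 step at -0.05, and over all intervals at 0.50 and 0.35. The pMN difference correlated with the WT pMN step at 0.51 and with the MUT pMN step at 0.20, and over all intervals at 0.50 and 0.47. WT and MUT steps correlated across members at 0.58, 0.56 and 0.55 for p0-p1, p2 and pMN, and at 0.86, 0.83 and 0.84 across all intervals.

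**Figure D5:**
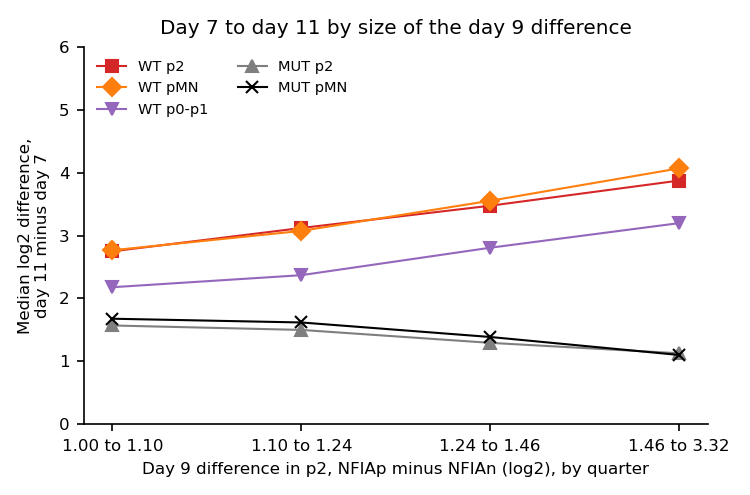
Median log2 difference of day 11 minus day 7 in members split into 4 classes by the day 9 difference in p2 (661 or 662 members each); lines join the classes for each genotype and population. WT p2 goes from 2.75 to 3.87 and MUT p2 from 1.57 to 1.13.

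Intervals that met one bound of the rule and not the other give a scale for these values, without a test. There were 3199 intervals with the p2 difference and a pMN difference below 0.5, and 13615 with the pMN difference and a p2 difference below 1. The median WT step in p2 was 0.90 in the first set and 1.27 in the second, beside 3.26 in the members. All 3 WT populations were called higher in 30.3% and 43.2% of them. MUT was lower than WT in p2 on day 11 in 22.5% and 20.5%. The MUT step in p0-p1 was called higher in 16.8% and 40.8%, beside 45.9% in the members. In MUT p2 the shares were 24.9% and 46.0%, beside 60.9%, and in MUT pMN 24.9% and 47.8%, beside 61.4%. From day 5 to day 7, with the WT populations averaged, 384 of the first set (12.0%) fell and 45 (1.41%) rose, with a median of -0.28. In the second set 441 (3.24%) fell and 1022 (7.51%) rose, with a median of 0.14. Over all tested intervals 4.12% fell and 7.67% rose.

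The 3 members with the highest mean over all libraries rose in both genotypes. That mean includes the day 11 libraries of both, so the choice favours such a rise. Interval_1047, with the highest mean over all libraries, had 107, 181 and 130.4 normalised reads in WT p2 on day 7 and 4874, 4582 and 3747 on day 11. In MUT p2 it went from 211, 223 and 183 to 3350.0, 2731 and 2446. Its mean steps were 4.72 ± 0.16 and 3.76 ± 0.16 (SE), and the difference of 0.96 ± 0.22 (SE) had a limma adjusted p of 0.00058 and fell short of the log2 bound of 1. Once the 3 doubted libraries were dropped the difference was 1.07 ± 0.22 (SE; limma adjusted p = 0.0001) and was called. Interval_60167 and Interval_29179 came next, with mean WT steps of 4.12 ± 0.18 and 5.57 ± 0.18 and mean MUT steps of 2.95 ± 0.18 and 4.87 ± 0.18 (SE). The median member had a mean of 42.7 normalised reads over all libraries (interquartile range 22.0 to 86.8), against 31.8 over all intervals.

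Interval numbers are the one trace of order in the table. Of the members, 96 (3.63%) had a member as the next number, where 1.70% of all intervals are members, and the longest run of consecutive numbers was 3. Whether neighbouring numbers are neighbours in the genome is not stated in the table. Stretches where the running median, over 1000 consecutive numbers, of the MUT minus WT difference on day 5 was off the overall median by more than 0.1 on the log2 scale held 270 members (10.2%) and 13.8% of all intervals. Without them the WT step exceeded the MUT step in 1180, 1325 and 1297 of 2377 members in p0-p1, p2 and pMN.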

How the data were processed

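ATAC-seq (CaTS-ATAC) was measured in 71 libraries of 26 groups. The authors deposited 1 table of signal, a normalised read count per numbered interval, on the mm10 build per the submitters' processing notes; the aligner, peak caller and counter are not given in the sources used here. Within each library the deposited signal values are whole multiples of 1 step (100.0% within 0.01), so reads were recovered from them. In 2 libraries, MUT day 11 p2 replicate 1 and WT day 9 pMN NFIAn replicate 2, the step lies near 1. Recovered reads numbered 20034731 to 31315134, and the precision they set covers counting error only.

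Values were taken as log2(value + 5), which understates changes of low intervals. Intervals with at least 10 in at least 2 libraries (155734) were fitted in 1 model over the 26 groups with limma 3.58.1 (R 4.3.3; 45 residual degrees of freedom), with Benjamini-Hochberg adjustment over all of them. A call needs an adjusted p under 0.05 and a log2 difference of at least 1. On data simulated for the WT p2 step (20000 intervals), 99% of 100 intervals changed 3-fold and 100% of 100 changed 6-fold were called, with 7 calls among 19800 unchanged. The changed intervals were drawn only from those with a mean at or above the median, so recovery at lower levels was not simulated. Python 3.11.15, pandas 2.3.3 and matplotlib 3.10.9 were used for counts and plots.

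The members and the lists were chosen with earlier results of these data known. Named intervals are those with the largest day 9 differences, and the largest WT rises, MUT rises and step differences called in all 3 populations. The rises and step differences were taken from members at or above the members' median level. WT rises were further limited to members whose days do not overlap. The lowest WT steps without a rise, the highest mean values, the extreme population differences (at or above that median level) and the nearest values to each bound were added. Alternatives were pseudocounts of 1 and 20, no filter, a mean of at least 30, quantile normalization, equal library totals, replicate blocks, a fit of only the groups compared, edgeR 4.0.16 on the recovered reads, and leaving out libraries or shifted stretches.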

Additional observations from a re-analysis of the deposited data

Results flagged for a closer look

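The WT and MUT steps from day 7 to day 11 differed by the interaction test (limma, adjusted p under 0.05 and a log2 difference of at least 1) in both directions together in 1342 members of the p0-p1 comparison, 1508 of the p2 comparison and 1489 of the pMN comparison. Those were 50.7%, 57.0% and 56.3% of the members, against 5.96%, 9.03% and 10.9% of all tested intervals. By the rule for named intervals, the largest mean differences of the steps were 5.36 in Interval_53741, 5.30 in Interval_87071 and 5.28 in Interval_118950 on the log2 scale. WT day 11 libraries are NFIAp and MUT libraries NFIAn, so genotype and sorted fraction cannot be told apart in these differences.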

How the results depend on the processing

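The number of members was 5562 with a pseudocount of 1, 784 with 20, 840 with p2 NFIAp replicate 2 in the mean, 1674 at a mean of at least 30, and 1550 to 5264 leaving out 1 library of the rule. At that mean of at least 30, with fewer members tested, calls numbered 1619 for the WT p2 step, 879, 984 and 951 for the step differences in p0-p1, p2 and pMN, 992, 1036 and 1023 for MUT against WT on day 11, and 35 for WT p2 against pMN. With pseudocounts of 1 and 20, calls were 384 and 46 for WT day 5 to 7, 579 and 140 for MUT day 7 to 9, 11 and 0 for MUT against WT on day 5, and 42 and 39 for WT p2 against pMN on day 11. A pseudocount of 20 gave 244 for WT p0-p1 day 7 to 9 and 338 for the MUT populations on day 11. With edgeR, calls were 425 for WT day 5 to 7, 632 for MUT day 7 to 9 and 14 for MUT against WT on day 5, where quantile normalization gave 1. Leaving out 1 library gave 1 to 4 on day 5, 39 to 73 for WT p2 against pMN, 301 to 460 for MUT day 7 to 9 and 465 to 596 for the MUT populations on day 11. The cause of these shifts was not tested. The other 367 counts of calls, both directions together, stayed within 1.5 times. Of the finer values (counts in 1 direction, medians and named intervals), 144 moved by more than their bound, 1534 did not and 5 lost their call; no called value changed sign. The WT day 5 to 7 split turned from 78 higher and 98 lower to 224 and 160 with a pseudocount of 1 and to 260 and 165 with edgeR. The median of WT p2 against pMN, -0.03, was 0.02 with equal library totals. Counts in the rarer direction moved with single libraries: the 13 members lower in the WT p2 step were 8 without WT day 11 p2 replicate 2. The 18 with a smaller WT step in pMN were 9 without WT day 11 pMN replicate 1 and 11 without its replicate 3 or MUT day 11 pMN replicate 1. The 4 in p2 were 1 without MUT day 11 p2 replicate 2, and the 1 in p0-p1 was 0 in 7 of these fits. The members higher in MUT on day 11 went from 27 to 47 in pMN without MUT replicate 3, from 4 to 7 in p2 without MUT replicate 3 and from 3 to 1 in p0-p1 without WT replicate 1. The 4 lower in WT p0-p1 from day 9 to 11 were 2 without day 9 replicate 2. The 5 lost calls were those of Interval_143487. Equal library totals took the median over all intervals from -0.01 to -0.15 for the p2 step difference, from -0.02 to -0.14 for that of pMN, and from 0.04 to 0.19 and 0.05 to 0.19 for MUT against WT on day 11 in p2 and pMN. Within a genotype and day, same-numbered libraries correlated in their deviations at a mean of 0.19 to 0.30. Means of other-numbered pairs were below 0, which follows from the positive ones because deviations sum to 0 within a group. Of 59 libraries, 58 correlated best with their own number. The match by number is a hint from the data. Every same-numbered pair within a genotype and day was positive, but some stayed under 0.1 on WT days 9 and 11 and MUT day 11 (lowest 0.042). No label ties the numbers to cultures, so pairing was not taken as shown and was not excluded. Across days the mean was 0.01 and 0.02, which does not bear on pairing within a day. With a replicate block across all libraries the step differences were higher in WT in 1402, 1545 and 1511 members, and with a block within day 11 the calls between WT p2 and pMN were 30 and 52.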
